A study of Mus musculus with 4 samples.

Results

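Skeletal muscle spots were described at the border of 1 MC38 tumor section, CC075F1 replicate 2. A spot is a small barcoded area of a Visium slide that captures RNA from the tissue above it and can hold several cells of different types, or parts of a single muscle fiber. Spots were chosen by their own counts: a muscle spot was one in which the unique molecular identifiers (UMIs) of Acta1, Ckm, Mylpf and Tnnt3 together made up 0.5% or more of all UMIs. This rule was met by 55 of the 3276 spots of the section (1.68%) and by 0 spots of the other 3 sections, so the muscle spots were 55 of 11947 spots in the series. They were compared with the 610 other edge spots, meaning the remaining spots of the same section within 3 grid steps of a position off the tissue. The 2611 interior spots are given for context.

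The section came from a female F1 mouse aged 8 to 12 weeks with the genotype C57BL/6J x CC075/UncJ. Per the study's methods, 500000 cells of MC38, a colon carcinoma line that arose in a C57BL/6 mouse, had been injected under the skin. At a tumor volume of 75 to 110 mm3 the mouse received 200 µg of isotype control antibody, and the tumor was taken 48 hours later. The hosts of the other 3 sections, of which 1 was C57BL/6J x CC075/UncJ and 2 were C57BL/6J x CC080/TauUncJ, were treated alike. The muscle spots are therefore a part of 1 section of 1 tumor. Spots of a section are not replicates, no p-value was computed, and nothing here bears on a difference between strains. Intervals are exact 95% intervals (Clopper-Pearson, conditional on the summed counts) and cover counting error only.

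Skeletal muscle fibers contract when calcium released from the sarcoplasmic reticulum lets myosin thick filaments pull on actin thin filaments, which are anchored at the Z disc. Fast fibers use other isoforms of myosin, troponin and the calcium pump than slow fibers do. A thin sheet of muscle lies in mouse skin, and trunk muscle lies beneath it, so both can border a tumor grown under the skin. Which muscle was sampled is not given by the labels.

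Promoter sequences are shown for the 3 rule markers that the reference promoter table holds, and for Myh4, the fastest adult myosin heavy chain, because these genes were all high in the muscle spots. The sequences are from RefSeq on GRCm38.p6 and run 5′ to 3′ on the strand of the gene, from 250 bases before to 50 bases after the transcription start. Capitals mark E-boxes, the CANNTG motif that MyoD and other basic helix-loop-helix factors can bind, which reads the same way on both strands. The windows are chr8:123894726-123895025 (minus strand) for Acta1, chr7:19410844-19411143 (plus) for Ckm, chr7:127211358-127211657 (plus) for Mylpf and chr11:67237562-67237861 (plus) for Myh4.
Acta1: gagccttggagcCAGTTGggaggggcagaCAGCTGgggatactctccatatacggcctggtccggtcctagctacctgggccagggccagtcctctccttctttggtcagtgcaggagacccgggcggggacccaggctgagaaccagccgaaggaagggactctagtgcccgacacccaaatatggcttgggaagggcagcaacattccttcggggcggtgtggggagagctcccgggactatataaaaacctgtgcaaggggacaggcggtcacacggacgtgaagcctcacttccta
Ckm: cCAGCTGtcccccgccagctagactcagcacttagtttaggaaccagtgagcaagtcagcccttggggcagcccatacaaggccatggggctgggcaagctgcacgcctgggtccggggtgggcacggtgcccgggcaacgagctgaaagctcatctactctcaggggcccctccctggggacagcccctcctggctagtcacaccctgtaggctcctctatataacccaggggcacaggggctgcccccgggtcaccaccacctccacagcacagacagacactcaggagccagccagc
Mylpf: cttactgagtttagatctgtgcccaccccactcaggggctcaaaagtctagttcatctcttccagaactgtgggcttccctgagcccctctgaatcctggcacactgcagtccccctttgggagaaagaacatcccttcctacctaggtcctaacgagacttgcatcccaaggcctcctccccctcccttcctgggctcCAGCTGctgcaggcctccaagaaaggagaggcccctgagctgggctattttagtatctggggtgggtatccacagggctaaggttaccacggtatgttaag
Myh4: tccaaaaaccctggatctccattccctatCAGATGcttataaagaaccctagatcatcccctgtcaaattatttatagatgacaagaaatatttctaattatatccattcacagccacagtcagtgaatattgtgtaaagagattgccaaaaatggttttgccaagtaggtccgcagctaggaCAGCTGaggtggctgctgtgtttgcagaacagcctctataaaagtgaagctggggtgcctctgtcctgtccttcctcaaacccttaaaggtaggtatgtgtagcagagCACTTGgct
The Acta1 window held 2 E-boxes, that of Ckm held 1, that of Mylpf 1 and that of Myh4 3. An E-box is common, being found in 72.3% of the 32851 mouse promoter windows searched. A CArG box, the motif of serum response factor, was found on either strand of the Acta1 and Myh4 windows (1 each) and in 1.63% of all windows. Matches to the TATA box letters TATAAA numbered 1 in the Acta1 window and 3 in that of Myh4, against 13.6% of windows with any, and they were counted on both strands. The MEF2 motif was matched in the Myh4 window alone of these 4 and in 3.19% of all windows. Windows of Atp2a1, Tnnc2, Myl1 and Pvalb, also high in the muscle spots, were searched but are not shown. They held 0 CArG boxes, and only a Pvalb window matched the MEF2 motif. These matches are descriptions of letters and were not tied to the measurements. Tnnt3 is the other rule marker.

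The muscle spots formed a thin band on the low-column side of the section. Of the 55, 51 lay at grid rows 25 to 62 and columns 2 to 12, and 4 lay on the opposite side at rows 66 to 71 and columns 107 to 112. They fell into 6 patches of touching spots, with 21 spots in the largest, then 16, 13 and 3 spots and 2 single spots, so that 53 muscle spots touched at least 1 other. They lay close to the free edge: 33 were 1 step from an off-tissue position, 20 were 2 steps and 2 were 3 steps away, whereas the other edge spots were spread evenly over these distances (214, 198 and 198). No muscle spot lay deeper. They made up 8.27% of the edge spots.

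**Figure D1:**
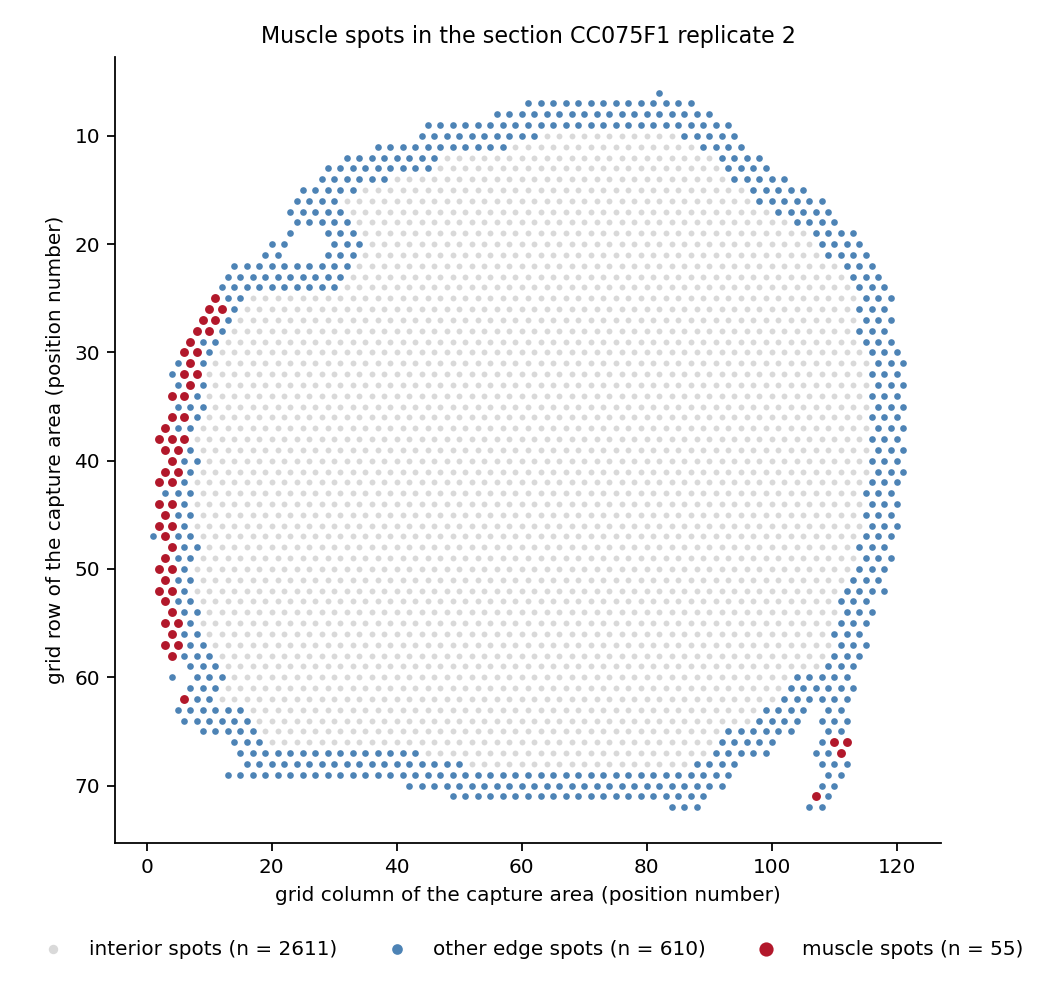
Map of the spots under tissue in CC075F1 replicate 2, by grid column (x axis, position number) and grid row (y axis, position number), drawn to the spacing of the spot grid. Red dots are the 55 muscle spots, blue dots the 610 other edge spots and gray dots the 2611 interior spots; the red dots form a band at columns 2 to 12, with 4 further spots at columns 107 to 112.

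The marker share was graded, not all or none. Among the muscle spots it ran from 0.501% through a median of 0.908% to 2.67%. The spots just inside the threshold were at 0.501%, 0.515% and 0.517%, and those just outside it at 0.475%, 0.469% and 0.468%. Another 27 spots lay between 0.25% and 0.5%, all of them at the edge. Of all marker UMIs in the section (19394), 68.4% were in the muscle spots, which held 0.954% of the section's UMIs, 22.4% were in the other edge spots and 9.18% in the interior. In the other sections the highest spot reached 0.0124% in CC075F1 replicate 1, 0.197% in CC080F1 replicate 1 and 0.0171% in CC080F1 replicate 2.

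Depth did not set the muscle spots apart at the median, but their RNA was richer in mitochondrial transcripts. UMIs per muscle spot ran from 10099 through a median of 25309 to 37568, and per other edge spot from 2174 through 25143.5 to 94802, while the interior median was 46146. The muscle spots summed to 1397175 UMIs and the other edge spots to 17666165. The mitochondrial share of UMIs had a median of 3.28% in muscle spots, 1.61% in other edge spots and 1.29% in the interior, and all 55 muscle spots were above the median of the other edge spots. All 13 mitochondrial genes had a ratio above 1, with a median of 2.36, from 1.15 for mt-Nd6, which had almost no UMIs, to 4.05 for mt-Nd4l. The part of the mitochondrial share in the differences below was not tested. Section totals in the series ran from 82594649 to 146460975 UMIs, this section being the deepest. Spot barcodes mark fixed slide positions, and 1666 occurred in all 4 sections.

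Levels below are UMIs of a gene per 1000000 UMIs (CPM), summed over the spots of a region, and a ratio is the summed CPM of the muscle spots over that of the other edge spots. Visium UMIs count captured transcript ends, so levels were not divided by transcript length. Within a spot, fewer cells of a type and less RNA per cell cannot be told apart. The 4 rule markers are given first as a description, since they chose the spots. Acta1 (ENSMUSG00000031972, chr8:123891769-123894751), the skeletal actin of the thin filament, had 2215 CPM in the lowest muscle spot, a median of 5033 and 12972 in the highest. Mylpf (ENSMUSG00000030672, chr7:127208890-127214298), a light chain of fast myosin, ran from 420.2 through 1698 to 5401 CPM. Ckm (ENSMUSG00000030399, chr7:19404776-19422841), the muscle creatine kinase that buffers ATP, ran from 355 through 985 to 5029 CPM. Tnnt3 (ENSMUSG00000061723, chr7:142498836-142516009), the fast troponin T, ran from 202 through 922 to 4532 CPM. The median of the other edge spots was 0 for each of the 4. The ratio of summed levels was similar among them, at 39.2 for Acta1 (5540 against 141 CPM), 39.7 for Ckm (1082 against 27.3), 37.1 for Mylpf (1867 against 50.3) and 37.2 for Tnnt3 (1006 against 27.1).

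Across the transcriptome, 8755 genes were expected to have at least 10 UMIs in the muscle spots at the pooled rate of both regions and were compared. Of these, 453 (5.17%) were at least 2-fold higher in the muscle spots and 336 (3.84%) at least 2-fold lower, and the median ratio was 1.01. The muscle lists, 7 groups of 95 genes for the thin filament, thick filament, slow-fiber isoforms, Z disc, calcium handling, energy supply and neuromuscular junction, had 56 genes compared, of which 54 were at least 2-fold higher and 0 lower. These include the 4 rule markers, and without them 50 of 52 were at least 2-fold higher. The other 399 of the 453 genes lay outside them. The spots were selected on muscle genes, so nothing is read from these shares. The shares over all genes compared, 5.17% higher and 3.84% lower, stand beside every list count below. In all, muscle list genes gave 2.76% of the UMIs of the muscle spots (1.31% in the lowest spot, 7.94% in the highest), 0.184% of those of the other edge spots and 0.117% of those of the interior. Most RNA of the muscle spots thus came from genes outside these lists.

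Contractile genes other than the rule markers were also higher in the muscle spots. All 8 thin filament genes compared were at least 2-fold higher, with a median log2 ratio of 4.92. This list holds the rule markers Acta1 and Tnnt3, and without them the median was 4.55 over 6 genes. Tnnc2, the fast troponin C that binds calcium, had 1138 against 32.04 CPM, and Tpm2 (tropomyosin) had 689 against 69.9. Tpm1, a tropomyosin gene also used by non-muscle cells, had 1146 against 373 CPM, a ratio of only 3.07 (2.91 to 3.24). Thick filament genes had a median log2 ratio of 5.16 over 8 genes and of 5.13 over 7 without the rule marker Mylpf, with Myh1 at 848 against 18.3 CPM, Myl1 at 727 against 23.3 and Ttn, the giant spring protein titin, at 565 against 15.5. The Z-disc list had a median of 5.11 over 12 genes. Its most abundant member was Cryab, a small heat shock protein that chaperones desmin and actin (1693 against 48.3 CPM), followed by the intermediate filament gene Des (1133 against 51.9) and the filamin gene Flnc (669.9 against 59.9).

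Calcium handling genes followed, with 8 of 8 at least 2-fold higher and a median log2 ratio of 4.53. Atp2a1, the fast-fiber calcium pump SERCA1, had 443 against 10.5 CPM, and Pvalb, the calcium buffer parvalbumin of fast fibers, 434 against 9.28. Sln, the small pump inhibitor sarcolipin, had a lower ratio of 4.17 (3.09 to 5.56), and 35.9% of its UMIs came from 1 spot at the high columns, without which its ratio was 2.73. Energy supply genes showed a wider spread, with 10 of 11 at least 2-fold higher and a median of 3.18 (2.88 over 10 genes without the rule marker Ckm). Mb (myoglobin, the oxygen store) had 283 against 12.2 CPM and Eno3 (muscle enolase) 196 against 21.6. Slc25a4, a mitochondrial ADP/ATP carrier also used outside muscle, had 556 against 459 CPM, a ratio of 1.21 (1.12 to 1.304). Genes of the neuromuscular junction were sparse: of 2 compared, Chrna1, a subunit of the acetylcholine receptor, had 34.4 against 8.09 CPM, and Chrnb1 had a ratio of 1.996.

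Fast isoforms made up most of the troponin UMIs in the muscle spots. Tnnt3, Mylpf and Acta1 chose the spots, so their shares restate the rule in part and nothing is read from them. Because Tnnt3 and Mylpf are fast-fiber genes, the rule can also favor spots rich in fast fibers, which bears on the shares of other isoforms. Slow Tnnt1 was at 18.8 CPM in muscle spots at 1% or more and 125 CPM in those from 0.5% to 1%. The slow-fiber list was at 1190 and 1348 CPM. No fiber type of the muscle as a whole is read from the shares. Of 1574 troponin T UMIs, 89.3% (87.7% to 90.8%) were from the fast gene Tnnt3, 7.50% from the slow gene Tnnt1 and 3.18% from the cardiac and embryonic gene Tnnt2. Of 1342 troponin I UMIs, 91.6% were from fast Tnni2, and of 1681 troponin C UMIs, 94.6% were from fast Tnnc2. Skeletal Acta1 gave 99.9% of the sarcomeric actin UMIs, with 8 UMIs from the cardiac gene Actc1. Of the other cardiac list genes, Myh6 and Nppa had 0 UMIs and Tnni3 had 1 UMI. Tnnt2 had 50 UMIs at a level close to that of the other edge spots (35.8 against 35.2 CPM), while Myl4, an atrial and embryonic muscle light chain, had 115 UMIs (ratio 7.27, 5.73 to 9.19).

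The adult myosin heavy chains, whose genes mark fiber types, were less uniform. Over 2407 UMIs, Myh1 (type 2X) gave 49.2% (47.2% to 51.2%), Myh2 (type 2A) 26.0% (24.2% to 27.8%), Myh4 (type 2B, the fastest) 18.4% (16.8% to 20.0%) and Myh7 (slow, type 1) 6.44% (5.49% to 7.50%). These genes are close paralogs, so their shares are uncertain where counting could split reads among them. The choice of spots by fast-fiber genes bears on these shares too. Spots held 7 to 103 of these UMIs with a median of 41. Myh1 led in 30 spots, Myh2 in 13, Myh7 in 5 and Myh4 in 4, with ties in 3.

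The isoform mix differed between patches. In the largest patch (21 spots) Myh1 gave 51.9%, Myh2 29.7%, Myh4 18.0% and Myh7 0.330% of 909 UMIs. In the patch of 16 spots Myh1 gave 57.9%, Myh2 15.3%, Myh4 23.5% and Myh7 3.29% of 851 UMIs, so Myh1 led in both while Myh2 had a smaller share in the second. In the patch of 13 spots, slow Myh7 reached 22.2% of 527 UMIs, Myh2 37.2% and Myh4 4.93%. Over the 4 spots on the opposite side together Myh4 gave 52.7%, on 93 UMIs only. The spot at row 71 and column 107 held 29 of those 49 Myh4 UMIs, and the other spots there were led by Myh1, Myh2 and Myh7, so the pooled share does not describe each spot. Myh7 was found in 13 of the 55 spots, and its 5 highest spots held 87.7% of its UMIs. A spot at row 37 and column 3 alone gave 43.9% of Myh7 and 30.3% of Myl2, the slow myosin light chain. That spot was part of the patch of 13. The whole slow-fiber list was spread more widely, with UMIs in all 55 muscle spots and 38.7% of them in its 5 highest spots. It had a ratio of 29.2 with that spot and 25.5 without it.

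**Figure D2:**
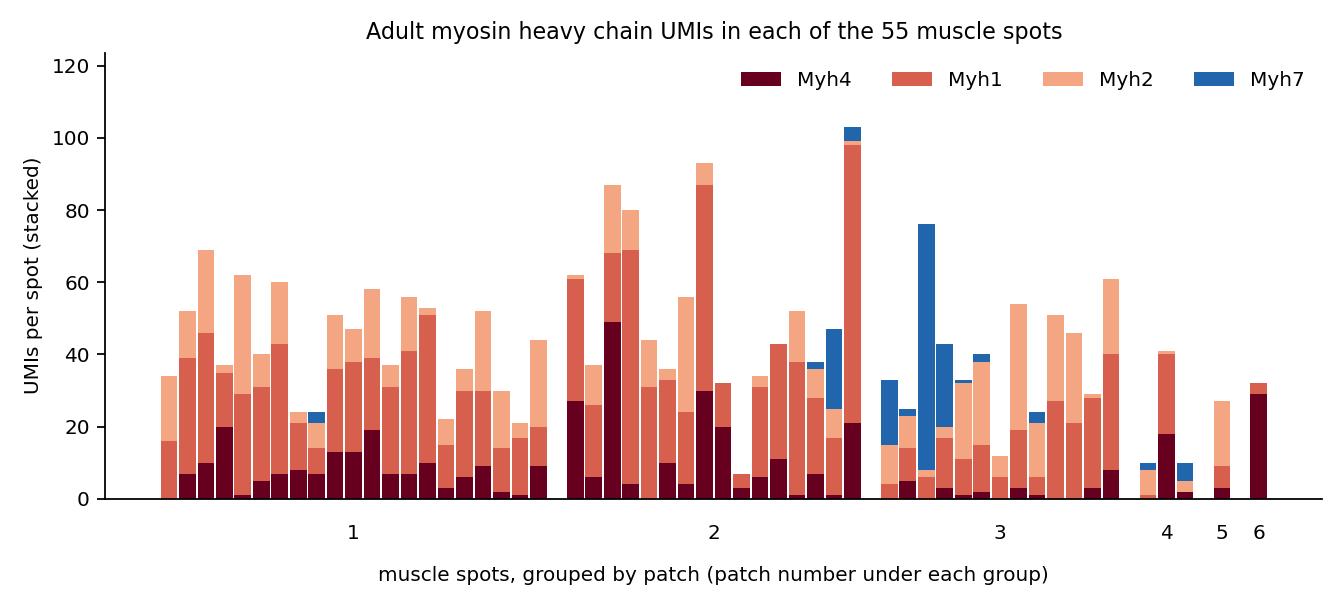
Stacked bars of UMIs of Myh4, Myh1, Myh2 and Myh7 (y axis, UMIs per spot) in each of the 55 muscle spots (x axis), grouped by the 6 patches of touching spots. Slow Myh7 (blue) was found in 13 spots and was concentrated in patch 3, where it made up 22.2% of these UMIs.

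The 10 genes with the largest ratios did not include the rule markers. Xirp2 (497 against 7.70 CPM, ratio 64.6, 53.7 to 78.2) and Xirp1 (172 against 2.94 CPM, ratio 58.4, 43.1 to 80.4) encode Xin repeat proteins that bind actin at muscle attachment sites. Car3 had 442 against 9.0 CPM, a ratio of 49.1. It encodes carbonic anhydrase 3, abundant in muscle and in fat. It is also a member of the adipocyte list, in which 2 of 2 genes compared were at least 2-fold higher (summed ratio 7.98), the other being the fatty acid carrier gene Fabp4 (111 against 53.0 CPM, ratio 2.09), which vessel cells and macrophages express as well. The defining fat genes Adipoq and Cidec had 1 UMI each in the muscle spots, and Pparg and Retn had 0. Klhl40 (48.7), Fhl1 (47.4), Pvalb (46.8), Myh1 (46.4), Csrp3 (45.2), Ankrd2 (44.96) and Myh2 (44.4) completed the first 10. Csrp3, a gene of the Z disc, and Ankrd2 are stretch-sensing muscle genes. Fhl1, a LIM-domain muscle gene outside the lists, had 628 against 13.2 CPM, was found in every muscle spot (33.07 CPM in the lowest, 599 at the median, 1633 in the highest) and had a median of 0 in the other edge spots. Other genes outside the lists were Nrap (ratio 43.1), which links actin to the membrane, Synpo2l (36.4), and the small heat shock gene Hspb1 (34.5, 603 against 17.5 CPM).

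Genes of fiber stress and atrophy were unequal, and the myogenic factors were detected at low levels. Trim63, the ubiquitin ligase MuRF1 of muscle atrophy, had 98.1 against 4.25 CPM (ratio 23.1, 17.3 to 31.0), and UMIs in 42 of 55 muscle spots. Of the 8 genes compared in the atrophy and stress list, 3 were at least 2-fold higher and 0 lower, the others being Ankrd1 (3.91, 3.45 to 4.42), a stress-induced ankyrin protein, and Cdkn1a (2.27, 1.73 to 2.93), which arrests the cell cycle. The most abundant member, the metallothionein Mt1, had a ratio of 0.535, and Mt2 had 1.06. Through Mt1 the summed ratio of the list was below 1 (0.859) although its median log2 ratio was above 0 (0.26). Of the regeneration genes, 1 was compared, Ncam1, with a ratio of 2.28 (1.48 to 3.40). The myogenic factors were below the count minimum. Myog had 49 UMIs in 25 muscle spots and 74 UMIs in the other edge spots (35.1 against 4.19 CPM), Myod1 20 against 13 UMIs and Myf6 36 against 17. Embryonic Myh3 had 21 UMIs in 16 spots. These counts are low, so the ratios of these genes carry wide intervals (5.71 to 12.2 for Myog, 9.21 to 42.6 for Myod1).

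**Figure D3:**
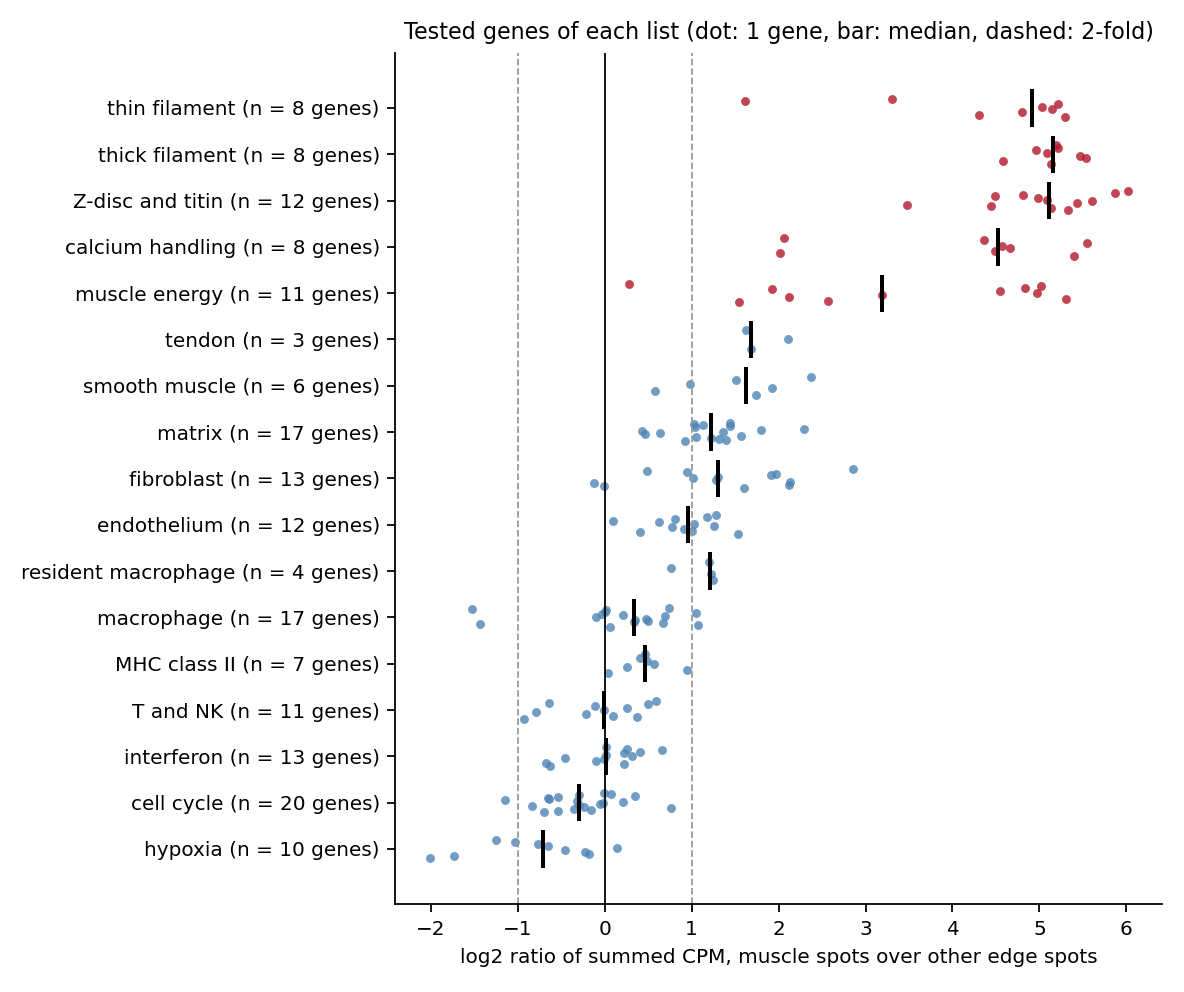
Log2 ratio of summed CPM, muscle spots over other edge spots (x axis), for every compared gene (dot) of 17 lists (y axis, with the number of genes), with the list median as a black bar and dashed lines at 2-fold. The 5 muscle lists drawn (red), 3 of which include rule markers, have medians from 3.18 to 5.16, matrix and fibroblast lists have medians of 1.23 and 1.301, and the hypoxia list has a median of −0.71.

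Stromal genes were the next group that was higher in the muscle spots. All 17 matrix genes compared had a ratio above 1, with 13 at least 2-fold higher and a median log2 ratio of 1.23, and the summed list was at 8282 against 3733 CPM (ratio 2.22, 2.18 to 2.26). The collagen I gene Col1a1 ran from 365 through a median of 965 to 3841 CPM over muscle spots, against a median of 165 and a highest value of 11008 in the other edge spots, so single spots overlapped widely although all 55 muscle spots were above the other spots' median. Col1a2 had 1444 against 579 CPM, Col3a1 1476 against 631 and Sparc, a collagen-binding matrix protein, 1328 against 606. Fn1 (fibronectin) had a ratio of 1.35 (1.24 to 1.46). Tendon genes, with 3 of 3 compared at least 2-fold higher, summed to 321 CPM against 78.0, and Thbs4, a thrombospondin of muscle attachments, had 219 against 50.7.

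Fibroblast genes did not move as a block. Of 13 compared, 9 were at least 2-fold higher and 0 lower. Mgp, a calcification inhibitor, had 540.4 against 137 CPM (ratio 3.93, 3.62 to 4.27), Mfap5, a microfibril gene, 204 against 54.06, and Fbn1 (fibrillin) 214 against 87.8. Pi16, a marker of adventitial and fascial fibroblasts, had the highest ratio, 7.23 (5.88 to 8.87), on 151 UMIs in 48 muscle spots. By contrast, Dcn (decorin), the gene of the list with the most UMIs in the other edge spots, was at 381 against 414 CPM (ratio 0.921, 0.842 to 1.01), and Cd34 was at 149.6 against 150.0. Vessel genes were also higher, with 12 of 12 endothelial genes above 1 and 6 at least 2-fold (Aqp1 2.89, Eng 2.38), and 4 of 6 smooth muscle and pericyte genes at least 2-fold (Acta2 3.35, Rgs5 2.84). As lists, both were near their level in the edge spots 1 step from a muscle spot. The endothelial list was at 616 CPM in muscle spots and 560 in those spots (interval of the ratio 0.9998 to 1.21). The smooth muscle and pericyte list was at 327 and 298 CPM (0.963 to 1.252). Schwann cell genes summed to a ratio of 1.32 and red cell genes to 1.05. The epidermal list held 32 UMIs in the muscle spots, of which Krt10 gave 25, with 1 UMI of Krt14 and 0 of Krt5 and Krt1.

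Immune genes split by type. The macrophage list summed to 9197 against 6906 CPM (ratio 1.33, 1.31 to 1.36), with 2 of 17 genes at least 2-fold higher and 2 at least 2-fold lower. Over all genes compared these shares were 5.17% and 3.84%, and nothing is read from the 2 counts. The lipid carrier gene Apoe ran from 823 through 2335 to 4978 CPM over muscle spots, against a median of 979.9 in the other edge spots, and its ratio was 2.11 (2.03 to 2.19). The complement genes C1qa, C1qb and C1qc had ratios of 1.59, 1.27 and 1.41, and lysozyme Lyz2 was level at 2134 against 2130 CPM. Ly6c2, a marker of inflammatory monocytes, was the other higher gene (2.07). Spp1 (osteopontin), which marks a tumor-associated macrophage state, was 2.89-fold lower (74.4 against 215 CPM), with a median of 55.1 CPM over muscle spots and 147 over other edge spots. Arg1, the arginase of suppressive macrophages, was 2.70-fold lower (1.65 to 4.76) on 16 UMIs in the muscle spots. These differences were not particular to the muscle spots. Against the edge spots 1 step from a muscle spot, the ratios were 0.964 (0.734 to 1.26) for Spp1 and 0.989 (0.472 to 2.05) for Arg1. They were 1.02 (0.975 to 1.08) for Apoe and 0.734 (0.530 to 1.01) for Ly6c2.

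The resident-type macrophage genes were higher as a list, with 988 against 443 CPM (ratio 2.23, 2.11 to 2.36) and 3 of 4 compared genes at least 2-fold higher. Ccl8 had 527 against 223 CPM, Selenop 178 against 77.6 and Mrc1, the mannose receptor CD206, 71.6 against 30.7. Pf4 had a ratio of 1.70. MHC class II genes were above 1 in 7 of 7 cases but 0 of them reached 2-fold, from 1.02 for Cd74 to 1.93 for Ciita, the master regulator of the family. Against the edge spots 1 step from a muscle spot this list was slightly lower, at 5499 against 5903 CPM (ratio 0.932, 0.904 to 0.960). Neutrophil genes summed to a ratio of 1.03 and dendritic genes to 1.07, on 136 and 76 UMIs in the muscle spots; the medians of their compared genes, 2 in each list, were slightly below 0 on the log2 scale.

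T and NK cell genes summed to 375 CPM in the muscle spots against 518 CPM (ratio 0.723, 0.661 to 0.790), and 12 of 55 muscle spots were above the median of the other edge spots. This sum rested on Ccl5, a chemokine made by T and NK cells, which was at 183 against 348 CPM (1.90-fold lower, 1.68 to 2.16). None of the 11 genes compared reached 2-fold in either direction, and their median log2 ratio was −0.01. Nkg7 and Trbc2 were above 1, at 1.42 (1.07 to 1.84) and 1.50 (1.07 to 2.08). Cd8a, the coreceptor of cytotoxic T cells, had 10 UMIs in the muscle spots and 147 in the others (ratio 0.860), too few to show a difference. Interferon response genes summed lower as well (3599 against 4743 CPM, ratio 0.759, 0.737 to 0.781), with 0 of 13 at 2-fold and a median log2 ratio of 0.02, which is of the opposite sign. The sum followed B2m, the light chain of MHC class I, with a median of 1949 CPM over muscle spots and 2841 over other edge spots, and 2 of 55 muscle spots above that latter median. Cxcl10 was at 200.4 against 319 CPM, Cxcl9 at 389 against 419 and Irf1 at 192.5 against 146, so the members did not point the same way.

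**Figure D4:**
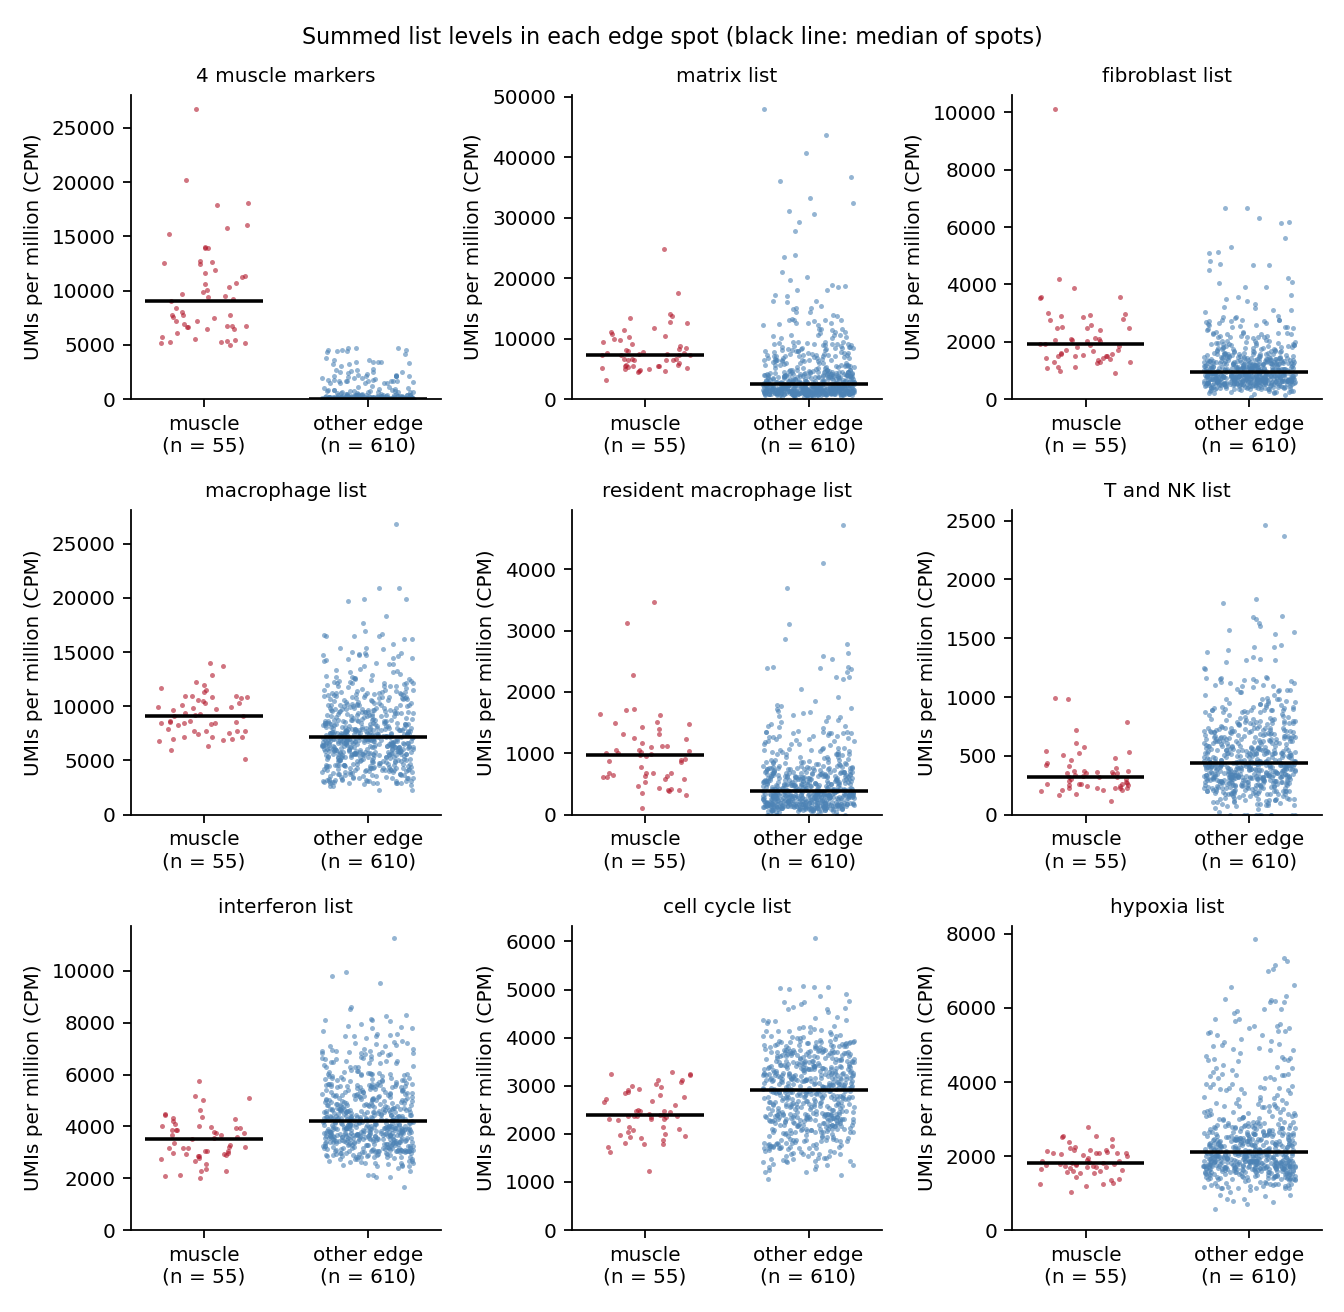
Summed level of 9 gene lists in each edge spot (y axis, CPM) for the 55 muscle spots (red) and the 610 other edge spots (blue), with black lines at the median over spots. Marker levels do not overlap because they chose the spots, while all other lists overlap; matrix, fibroblast and resident macrophage levels lie mostly above the other spots' median and interferon, cell cycle and T and NK levels mostly below it.

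Antibody genes were high through very few spots. Igkc, the kappa light chain made by plasma cells, had 786 against 56.8 CPM, but its median over muscle spots was 0. A single spot at row 48 and column 4 in the largest patch held 814 of its 1098 UMIs (74.1%), 79.7% of those of Ighg2c, a heavy chain gene, and 77.8% of those of Jchain, which joins antibody chains. Without that spot Igkc was at 208 CPM and its ratio was 3.67 in place of 13.8, and without the whole patch it was lower in the muscle spots than in the others (log2 ratio −0.64). Ms4a1, a B cell marker, had 0 UMIs in the muscle spots. Mast cell genes had 47 UMIs, 36.2% of them from 1 spot.

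Of the genes tied to the tumor cells, the epithelial ones had too few counts to compare. The list of 13 epithelial genes had 26 UMIs in the muscle spots and 99 in the other edge spots, with 0 genes compared, and its level was 18.6, 5.60 and 2.79 CPM in muscle, other edge and interior spots. Spint2 alone gave 10.0 CPM of this level in the muscle spots and 2.32 CPM in the other edge spots, so these levels do not measure tumor content. Epcam had 1 UMI and Krt8 1 UMI in the muscle spots, and both were nearly absent from the other edge spots as well, so defining epithelial markers of the labelled carcinoma line were at or near 0 in this section. Shisal2b, which the study used to mark MC38 cells, had enough counts to compare. It was at 74.4 CPM in the muscle spots, 140 in the adjacent edge spots, 246 in all other edge spots and 255 in the interior. Its ratio was 0.303 (0.247 to 0.367), and its median over spots was 58.4 CPM in muscle spots and 196 in other edge spots, so it was lower in the muscle spots and not absent. Cell cycle genes, which any dividing cell uses, summed to 2495 against 2939 CPM (ratio 0.849, 0.820 to 0.878). Of 20 compared, 16 were below 1 and 1 was at least 2-fold lower, against 3.84% of all genes compared, so nothing is read from that count. The gene was Mki67, the proliferation marker, at 40.1 against 88.9 CPM (2.22-fold lower, 1.70 to 2.95). Pcna and Birc5 were at 0.644 and 0.690, while Ube2c was level (0.993) and Tk1 was higher (1.27, 1.12 to 1.44).

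Hypoxia response genes were lower in the muscle spots than in the other edge spots. Of 10 compared, 9 were below 1 and 4 at least 2-fold lower, with a summed ratio of 0.711 (0.683 to 0.739). Bnip3, a mitophagy receptor, was at 31.5 against 104 CPM, Slc2a1, the glucose transporter GLUT1, at 40.8 against 83.6, and Vegfa, the vessel growth factor, at 22.2 against 52.8. Pgk1, a glycolytic enzyme, was at 520.3 against 885 CPM, and Ldha at 1136 against 1334. Among the 10 genes with the smallest ratios of all, Btg3, an antiproliferative gene, was 3.72-fold lower (2.67 to 5.33), Shisal2b, described above, 3.31-fold, Gas5, a snoRNA host RNA, 3.18-fold and Ero1l, an oxidase of the endoplasmic reticulum, 3.16-fold. Gas5 was at 538 CPM in the muscle spots, 1712 in the other edge spots and 2192 in the interior, and between 1598 and 2213 CPM in the other 3 sections. The others were Dancr, 3830403N18Rik, Hspb11, Ccdc58 and Gm773, from 2.97- to 3.08-fold lower.

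The surroundings of the muscle spots were followed within the edge. Steps were counted in any direction, so they ran into the tissue as well as along the edge. The median was 22863 UMIs per spot at 1 step and 47024 at 2 steps. Over all spots within 6 steps of a muscle spot, matrix genes were at 7260, 6827 and 5398 CPM at 1, 2 and 3 steps from the off-tissue area. The part of tissue depth and of UMIs in these courses was not tested. The 55 edge spots 1 step from a muscle spot had 1604 CPM of the 4 markers, against 9495 in the muscle spots, 440.1 at 2 steps (32 spots), 110.0 at 3 to 5 steps (43 spots), 59.5 at 6 to 10 steps (87 spots) and 90.0 farther away (393 spots). Matrix and macrophage genes were not lower at the first step, and fibroblast and resident macrophage genes were slightly lower. Matrix genes were at 8282 CPM in the muscle spots, 9544 at 1 step, 4459 at 2 steps and 2682 beyond 10 steps. Col1a1 itself was lower in the muscle spots than at 1 step (1215 against 1552 CPM, ratio 0.783, 0.735 to 0.833). Fibroblast genes stood at 2144, 2023, 1140 and 959 CPM at the same 4 distances, and resident macrophage genes at 988, 924, 596 and 368. The levels of these lists in the muscle spots were thus near those of the directly adjacent edge spots, with ratios to them of 0.868 (0.847 to 0.889) for matrix, 1.06 (1.01 to 1.11) for fibroblast and 1.07 (0.992 to 1.15) for resident macrophage genes.

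T and NK and interferon genes took another course. T and NK genes were at 375 CPM in the muscle spots and between 498 and 572 at every other distance, and their ratio to the adjacent spots was 0.656 (0.588 to 0.731). Much of this sum was Ccl5, at 183 CPM in the muscle spots and 343.5 in the adjacent spots, and the course without it was not computed. Interferon response genes were at 3599 CPM in the muscle spots, 5001 at 1 step, 6077 at 2 steps, 5529 at 3 to 5 steps and 4376 beyond 10 steps, so the highest of these values was at 2 steps. Over all spots within 6 steps of a muscle spot, they were at 4081, 5131 and 5769 CPM at 1, 2 and 3 steps from the off-tissue area. Distance from muscle and tissue depth were not separated here. Cxcl9 was at 612 CPM in the adjacent spots and 389 in the muscle spots (ratio 0.636, 0.572 to 0.708). Hypoxia genes were low in the whole neighborhood, at 1888 CPM in the muscle spots, 1785 at 1 step and 1751 at 2 steps, and 3135 beyond 10 steps, and their ratio to the adjacent spots was 1.06 (1.00 to 1.12).

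**Figure D5:**
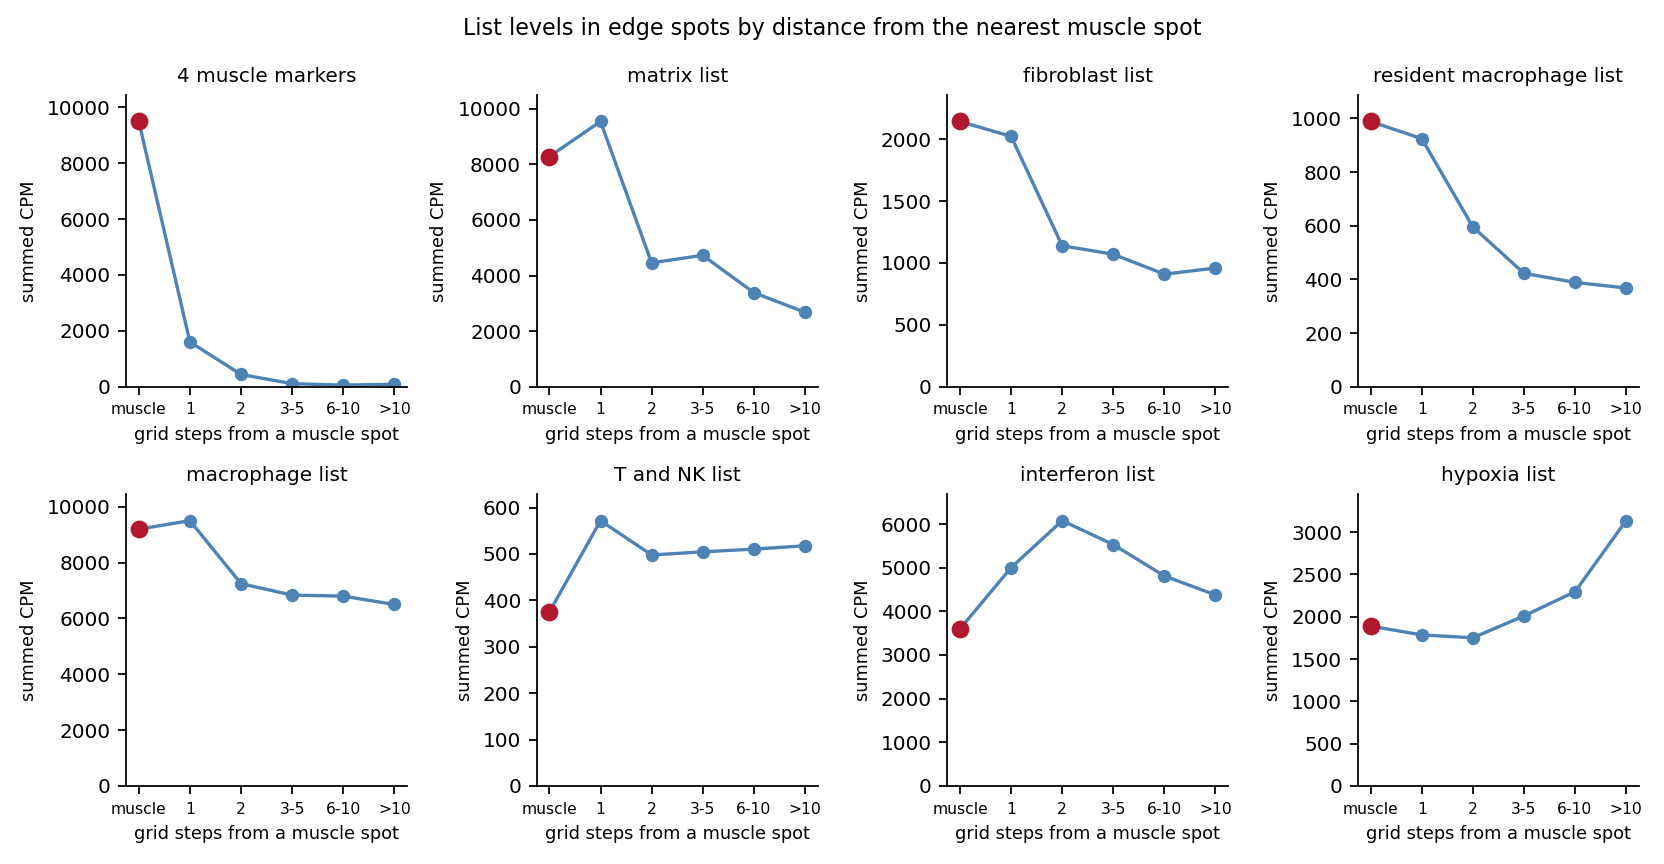
Summed CPM of 8 gene lists (y axes, from 0) in edge spots by grid steps from the nearest muscle spot (x axis; the red point is the muscle spots, then 1, 2, 3-5, 6-10 and more than 10 steps, with 55, 55, 32, 43, 87 and 393 spots). Markers drop at the first step, matrix, fibroblast and both macrophage lists show their larger drop at the second, the interferon list is highest at 2 steps (6077) and the hypoxia list is highest beyond 10 steps (3135). Steps run into the tissue as well as along the edge, so distance and tissue depth are not separated.

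The low hypoxia level was not limited to the edge on this side. Spots within 6 steps of a muscle spot and 6 to 8 steps inside the tissue (82 spots) had 1898 CPM of hypoxia genes, against 3117 in the 428 spots at the same depth elsewhere. Interferon genes were at 5676 against 4258 CPM and cell cycle genes at 3668 against 2860 in the same comparison. These near spots were also deeper, with a median of 66347.5 UMIs against 35825.5, and the part of depth in these differences was not tested. At 1 step from the off-tissue area, where 33 of the 85 near spots were muscle spots, hypoxia genes were at 2024 CPM near and 2922 CPM far, and matrix genes at 7260 and 3791 CPM.

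Within the 55 muscle spots, the marker share was followed by some lists and not by others. The rank correlation (Spearman) with the marker share was 0.73 for Z-disc and 0.63 for calcium handling genes, but 0.26 for slow-fiber genes. It was 0.43 for matrix and 0.40 for fibroblast genes, −0.56 for cell cycle genes and −0.01 for T and NK genes. All points share 1 library and each spot's total enters both measures, and the marker share itself had a correlation of −0.28 with UMIs per spot, so these values are descriptions. The 22 spots at 1% or more had 9889 CPM of matrix genes and 2155 CPM of cell cycle genes, against 7296 and 2704 CPM in the 33 spots from 0.5% to 1%.

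The 4 muscle spots on the opposite side resembled the band in most lists. They had 7655 CPM of the markers against 9602 in the band, 6665 against 8377 of matrix genes and 9985 against 9151 of macrophage genes. Neuromuscular junction genes were higher there, at 286 (179 to 434) against 56.8 CPM (44.7 to 71.2), and regeneration genes at 378 (253 to 542) against 114 CPM (96.2 to 133), on 22 and 29 UMIs from 4 spots, and cardiac list genes at 547 against 99.97 CPM. A single spot at row 71 and column 107 held 14 of the 22, 22 of the 29 and 34 of the 42 cardiac list UMIs. In the other 3 spots the levels were 172 CPM (8 UMIs) for junction genes, 150.3 CPM (7 UMIs) for regeneration genes and 172 CPM (8 UMIs) for cardiac genes. Pvalb was at 156 against 451 CPM, and Tnnt1 at 286 against 72.7 CPM.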

How the data were processed

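Visium slides carried 4 sections of fresh frozen MC38 tumors, 2 per host genotype, and only CC075F1 replicate 2 was analysed in depth. The deposited files hold UMI counts, not normalized, for each gene in each spot, made by the authors with Space Ranger 1.3.1 on GRCm38 (10x Genomics mm10 reference, GENCODE vM23), with the grid position and tissue flag of each spot. The submitters' processing notes also name Seurat 5.0.1, whose output was not used. That reference is of C57BL/6J, and 1 parent of each host was of a Collaborative Cross strain; whether reads of its haplotype align less well was not tested.

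From the counts, UMIs were summed over muscle spots (0.5% or more of UMIs from 4 markers) and over other edge spots (within 3 grid steps of an off-tissue position) with Python 3.11.15, NumPy 2.4.6, SciPy 1.17.1 and pandas 2.3.3. Genes with at least 10 UMIs expected in the muscle spots at the pooled rate were compared (8755), and a ratio of summed CPM of 2 or more in either direction was counted. Spot depth is given in the report, and 95% intervals cover counting error only. No test was made because 1 section has no replicate. The ratio and its interval were tested on simulated counts. Those counts were drawn independently for each region, so that check does not cover unevenness among spots. Spots were not filtered, and doublets do not apply.

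The muscle spots, the 32 gene lists and the comparisons were chosen with earlier results of these data known. Named genes were the 2 to 5 members of a list with the most UMIs, and the 10 largest and 10 smallest ratios among compared genes with at least 50 CPM in the higher region. Other list members (such as Pi16, Trim63, Myog, Vegfa, Mki67, Ly6c2, Arg1, Ciita and Cd8a), the 10 largest outside the lists, Ighg2c among them, and the single spots named were picked after their values were seen. Alternatives changed the marker threshold, the width of the edge, the comparison spots, the weighting of spots, the CPM denominator and the count minimum. Gene positions are from GENCODE vM21 on GRCm38.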

Additional observations from a re-analysis of the deposited data

How the results depend on the processing

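Values are log2 ratios of muscle over other edge spots unless given as counts. At a threshold of 1% the muscle spots numbered 22 and at 2% they numbered 2, against 82 at 0.25%. With the 22 spots, 250 genes were at least 2-fold higher, and the lists were at 0.58 (macrophage, 0.41 as reported), 1.16 (fibroblast, 1.01), 1.34 (matrix, 1.15), 0.54 (tumor epithelial, 1.73) and −0.44 (cell cycle, −0.24). With only 2 spots, 18 genes were higher and 84 lower, the macrophage list turned to −0.11, and the T and NK, fibroblast, matrix and cell cycle lists were at −0.81, 1.50, 1.295 and −0.77, while the tumor epithelial list had 0 UMIs and gave no value. Single genes that changed direction were Sln at 1% (−0.54) and Aqp1 (−0.064), Ccdc58 (0.29) and Ccl8 (−0.61) at 2%. An edge of 5 steps gave 0.50, 1.22 and 1.48 for the macrophage, fibroblast and matrix lists. In the same order, leaving out edge spots within 2 steps of a muscle spot gave 0.48, 1.16 and 1.44, weighting edge spots by grid steps 0.36, 0.91 and 0.98, and weighting each spot equally 0.26, 0.84 and 0.87. CPM without the muscle genes gave 0.45 for macrophage and 1.19 for matrix genes. Without the largest patch, 284 genes were at least 2-fold higher, the macrophage, T and NK, matrix and cell cycle lists were at 0.23, −0.66, 1.03 and −0.18, and Igkc and Ighg2c turned to −0.64 and −1.26. A minimum of 3 expected UMIs gave 931 higher and 625 lower genes, and a minimum of 30 gave 165 and 136, with 11259 and 5031 genes compared. The cause of the other shifts was not tested. The muscle spots at the low columns alone, an alternative added after the data were seen, gave 430 higher and 348 lower genes, within 1.5 times the reported counts. Of 1144 values of 134 named genes under the alternatives, 6 changed direction, 424 moved by more than counting error and 714 did not. No paired analysis was possible because the result comes from no test and from 1 section. Depth limits genes of few UMIs, such as Cd8a and the epithelial genes.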

Other observations

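Antibody genes of the edge were unequal among sections as well as among spots. Over all edge spots, muscle spots included, Ighg2c had 1410 UMIs (74.0 CPM) in this section, 0 in CC075F1 replicate 1, 1 in CC080F1 replicate 1 and 0 in CC080F1 replicate 2. Igkc had 110 CPM at the edge here, against 2.50, 0.478 and 0.894 CPM at the edges of the same 3 sections. In this section Ighg2c had 30.2 CPM in the other edge spots, 15019 CPM in the highest of them and 0.534 CPM in the interior. In the 55 edge spots adjacent to a muscle spot Igkc was at 449 CPM, against 56.8 CPM over all other edge spots.

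Muscle genes were also detected at a low level outside this section. In CC080F1 replicate 1 the 4 markers summed to 14.6 CPM over the section with 626 UMIs of Acta1, against 5.22 CPM in CC075F1 replicate 1 and 3.81 CPM in CC080F1 replicate 2, which had 9 and 20 UMIs of Acta1. In the muscle spots the mitochondrial genes did not share 1 ratio to the other edge spots: mt-Cytb was at 1.21 (1.18 to 1.25), mt-Co1 at 1.50 and mt-Nd3 at 3.30 (3.09 to 3.53).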
